A study of Mus musculus with 2 samples.

Results

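The sites described here are accessible chromatin sites that lie deep inside the very longest mouse genes. A site was counted when a peak of the first ATAC-seq library overlapped a peak of the second by at least 1 bp, when its replicate 1 summit fell inside a protein-coding gene longer than 500 kb, and when that summit was more than 1000 bp from any protein-coding gene end. Models of the protocadherin clusters on chromosome 18 were left out. Of 83732 sites shared by both libraries, 3385 met the rule (4.04%, 95% Wilson interval 3.91 to 4.18). The RefSeq table on GRCm38.p6 held 223 such genes, 1.02% of its 21883 protein-coding genes, and 2 of them held no site.

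Accessible chromatin was read with ATAC-seq, an assay that uses Tn5 transposase to cut and tag open DNA, in mouse GSCs (abbreviated so in the labels) with the genotype Stag3 KO. The cells were of the line Acrosin-EGFP; beta-Actin-EGFP (AAG) and had been sorted as viable, AAG-positive cells. Stag3 encodes a subunit of cohesin, the ring complex that forms chromosome loops. Both libraries belonged to 1 group, and the wild-type cells that the design text sets beside them were not analysed here, so no value below is an effect of the knockout. Separate cultures are not stated for the 2 libraries, so their spread can be of technical origin only, and neither passage nor clone is given. As a check of the labelled cell type, 8 of 8 germ cell marker genes had a shared peak within 1000 bp of a gene end, beside 65.6% of all protein-coding genes. Of the testis somatic, endothelial and blood markers, 6 of 12 did. These were Sox9, Wt1, Amh, Cyp11a1, Vim and Kdr, while Adgre1, Dcn, Gata4, Insl3, Pecam1 and Ptprc had none. Stag3 itself had a shared gene-end peak with folds of 6.27 and 6.72 on 19 and 20 tags, and the labels do not say which part of the gene was removed.

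Replicate 1 held 107331 peaks and replicate 2 held 98986. Fold means the enrichment of the summit over the local background as the authors' peak caller gave it. Tags means the reads or fragments stacked at the summit, a whole number recovered from the deposited fold and p-value. Which of these the peak caller counted is not stated. A summit of the whole lists held a median of 40 tags in replicate 1 and 41 in replicate 2. A site that is open in few cells and a site that is weakly open in many cells give the same value in such bulk libraries.

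Genes of this length are mostly intron. Many encode proteins of the nervous system, such as synaptic adhesion molecules, receptors, channels and their scaffolds, and others encode transcription factors, kinases and muscle membrane proteins. Their introns can hold enhancers and start sites of shorter transcripts, and several of them are common fragile sites, regions that tend to break when replication is slowed.

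Some of the sites covered start sites of shorter transcripts, and their sequences are shown first because base composition differed between start sites with and without a peak. A start window ran from 250 bases before a RefSeq start to 50 bases after it, and it was called inner when the start lay inside the long gene and over 1000 bp from any gene end. The stretches below are the 250 bases before the start (RefSeq, GRCm38), printed 5′ to 3′ along the gene with CG dinucleotides in capitals. Of 53 windows considered for printing, each with a shared site over 50 kb from either end of the gene, 23 had the replicate 1 summit inside these bases. Shown are the 6 of these with the highest replicate 1 fold, and Dmd, the longest gene.
Esrrg, chr1:187997577-187997826, plus strand: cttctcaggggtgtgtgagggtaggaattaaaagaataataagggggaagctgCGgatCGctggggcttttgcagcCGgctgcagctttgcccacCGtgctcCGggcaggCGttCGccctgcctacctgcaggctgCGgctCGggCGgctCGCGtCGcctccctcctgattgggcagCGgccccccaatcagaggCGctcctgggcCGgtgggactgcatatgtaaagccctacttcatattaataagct
Nrxn3, chr12:89812233-89812482, plus strand: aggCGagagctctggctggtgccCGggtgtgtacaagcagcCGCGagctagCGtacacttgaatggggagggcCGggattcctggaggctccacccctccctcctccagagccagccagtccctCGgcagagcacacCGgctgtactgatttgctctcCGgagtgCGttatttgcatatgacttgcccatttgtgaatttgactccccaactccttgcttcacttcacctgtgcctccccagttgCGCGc
Cntnap2, chr6:47244146-47244395, plus strand: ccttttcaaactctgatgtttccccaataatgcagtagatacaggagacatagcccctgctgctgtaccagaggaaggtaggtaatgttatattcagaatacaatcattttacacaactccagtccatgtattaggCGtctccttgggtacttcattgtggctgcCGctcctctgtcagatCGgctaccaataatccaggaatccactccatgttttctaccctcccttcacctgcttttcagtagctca
Nav2, chr7:49245939-49246188, plus strand: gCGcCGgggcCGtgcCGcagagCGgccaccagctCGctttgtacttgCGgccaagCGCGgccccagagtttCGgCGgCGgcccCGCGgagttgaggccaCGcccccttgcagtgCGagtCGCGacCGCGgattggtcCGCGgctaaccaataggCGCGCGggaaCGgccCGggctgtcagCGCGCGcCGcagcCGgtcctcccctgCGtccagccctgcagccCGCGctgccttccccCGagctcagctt
Pde1c, chr6:56369635-56369884, minus strand: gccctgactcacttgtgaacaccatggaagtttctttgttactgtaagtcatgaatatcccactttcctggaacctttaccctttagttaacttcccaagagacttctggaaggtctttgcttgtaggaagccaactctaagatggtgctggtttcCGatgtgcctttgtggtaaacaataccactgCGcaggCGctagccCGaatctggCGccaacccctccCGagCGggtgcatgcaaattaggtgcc
Cdh18, chr15:23036213-23036462, plus strand: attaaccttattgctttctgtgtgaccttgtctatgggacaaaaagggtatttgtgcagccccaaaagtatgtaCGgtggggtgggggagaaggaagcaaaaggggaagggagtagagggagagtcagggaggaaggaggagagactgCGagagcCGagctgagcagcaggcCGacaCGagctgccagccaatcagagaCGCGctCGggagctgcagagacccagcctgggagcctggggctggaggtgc
Dmd, chrX:85048045-85048294, plus strand: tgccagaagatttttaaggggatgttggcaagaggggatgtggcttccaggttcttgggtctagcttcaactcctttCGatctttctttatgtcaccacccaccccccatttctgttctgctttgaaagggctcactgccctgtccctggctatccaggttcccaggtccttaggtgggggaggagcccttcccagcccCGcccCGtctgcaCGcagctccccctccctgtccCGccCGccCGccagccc

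The next 3 stretches are inner start windows, also over 50 kb from an end, of genes shown above. No peak of either library touched them.
Dmd, chrX:82948620-82948869, plus strand: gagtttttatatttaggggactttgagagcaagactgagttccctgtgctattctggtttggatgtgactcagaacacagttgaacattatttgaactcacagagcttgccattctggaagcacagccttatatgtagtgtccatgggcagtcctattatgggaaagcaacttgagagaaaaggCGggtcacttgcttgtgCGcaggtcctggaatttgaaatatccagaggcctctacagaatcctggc
Nrxn3, chr12:88794254-88794503, plus strand: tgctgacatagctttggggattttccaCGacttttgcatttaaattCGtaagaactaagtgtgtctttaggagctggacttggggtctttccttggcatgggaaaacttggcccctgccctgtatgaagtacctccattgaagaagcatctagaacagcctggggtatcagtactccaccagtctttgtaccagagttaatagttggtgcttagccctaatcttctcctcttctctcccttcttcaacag
Pde1c, chr6:56362811-56363060, minus strand: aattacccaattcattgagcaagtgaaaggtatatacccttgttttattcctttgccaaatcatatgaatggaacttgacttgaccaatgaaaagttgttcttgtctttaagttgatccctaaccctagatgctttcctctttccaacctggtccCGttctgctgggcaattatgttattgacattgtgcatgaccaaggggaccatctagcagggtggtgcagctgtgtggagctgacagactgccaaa

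The Nav2 stretch held 36 CG dinucleotides and the Cntnap2 stretch held 3, so start windows with a site were far from uniform. Nav2, a neuronal navigator protein gene, had folds of 20.5 and 21.1 on 253 and 250 tags there. Cntnap2, a neurexin-like adhesion gene, had folds of 21.1 and 17.0 on 81 and 52 tags. The Cntnap2 summit fell 72 bases before the start and the Nav2 summit 89 bases before it.

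At Esrrg, which encodes an orphan nuclear receptor, the site had folds of 25.9 and 28.6 on 147 and 134 tags. Nrxn3, a presynaptic adhesion gene, had folds of 22.9 and 24.1 on 339 and 372 tags, with the summit 522.6 kb from the nearer gene end. Its other window shown, with 2 CG dinucleotides, had no peak. The pair of Nrxn3 stretches therefore differed in accessibility within 1 gene.

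Pde1c, which encodes a phosphodiesterase that breaks down cyclic nucleotides, had folds of 20.3 and 17.5 on 90 and 57 tags. Cdh18, a cadherin gene, had folds of 19.4 and 18.7 on 236 and 243 tags. At Dmd, the dystrophin gene, the site at the start shown had folds of 13.0 and 14.0 on 48 and 58 tags, and it was the start nearer to the higher-coordinate end. The upstream Dmd window held 2 CG dinucleotides, against 7 in the stretch with a site.

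Over all inner start windows of the long genes, 73 of 145 were touched by a shared peak (50.3%, 95% Wilson interval 42.3 to 58.4), beside 44.5% of all RefSeq start windows. The share was 45.4% for inner windows of genes of 200 to 500 kb and 46.5% for those of genes up to 200 kb, both within that interval. Start windows at the outer ends of the long genes were touched in 77.2% of 145 cases. Start windows of noncoding genes placed inside the long genes were touched in 31 of 272 cases (11.4%), and those outside protein-coding genes in 11.7%.

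Inner start windows with a shared site were richer in G and C, with a median of 60% against 46.7% in those without, and held a median of 14 CG dinucleotides against 4.5. The GC box GGGCGG, searched on both strands, was in 46.6% of the windows with a site, in 15.3% of those without and in 35.7% of all start windows. The TATA box letters TATAAA were in 4.11%, 16.7% and 13.6% respectively. The letters CCAAT were in 34.2%, 34.7% and 37.4%. These are matches to letters in 300 bases and not sites of a factor.

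Start sites accounted for little of the whole set. Only 69 of the 3385 sites (2.04%) touched an inner start window of their own long gene, 4 touched an outer start window of it only, 23 touched a start window of another gene only, and 97.2% touched none. These shares were not counted over all shared sites. The 69 sites at inner starts were broader than the sites of the set that touched no start window. Median widths were 582 bp in replicate 1 and 503 bp in replicate 2, against 332 and 319 bp. Their median was 54 and 60 tags, against 41 and 36 tags. Median folds were 10.9 and 11.1 against 10.97 and 9.92. No sequence is shown for the sites away from start windows, which were described by position and counts.

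The interiors of the long genes were thin in accessible sites compared with shorter genes. They spanned 188.6 Mb and held 17.95 shared sites per Mb, 1 per 55.7 kb. The density was 41.6 per Mb in genes up to 50 kb, 35.0 in genes of 50 to 100 kb, 33.9 in genes of 100 to 200 kb and 28.3 in genes of 200 to 500 kb, each measured over 1000 bp from any gene end. Sequence outside protein-coding genes held 21.7 per Mb, a value that assembly gaps, which were not removed, make too low. That sequence also took in the Y chromosome, which holds none of the long genes. On the autosomes alone the density was 24.2 per Mb outside genes and 18.6 per Mb inside the long genes. The ratio of the long genes to all shorter gene bodies was 0.519, and to genes of 200 to 500 kb it was 0.634. Shorter genes lie closer to their ends throughout. Inside the long genes themselves, density was 80.9 per Mb at 1 to 5 kb from the nearer end and 21.8 at 10 to 25 kb. The classes were not compared at equal distance from an end, so gene length and distance cannot be told apart here.

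Each library taken alone gave the same order. Replicate 1 had 4712 peaks inside the long genes, 25.0 per Mb, and replicate 2 had 4102, 21.8 per Mb, a mean of 23.4 ± 2.288 per Mb (SD, n = 2). Genes of 200 to 500 kb had 37.9 and 34.4 per Mb, a mean of 36.1 ± 2.52, so the gap to the long genes was several times the spread between libraries. Outside genes the values were 29.2 and 26.1, a mean of 27.6 ± 2.19. The replicate 1 value inside long genes came close to the replicate 2 value outside genes. The values outside genes include the Y chromosome and the assembly gaps, so this closeness is not a like comparison. No test was made, because both libraries form 1 group and the regions share the same libraries.

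**Figure D1:**
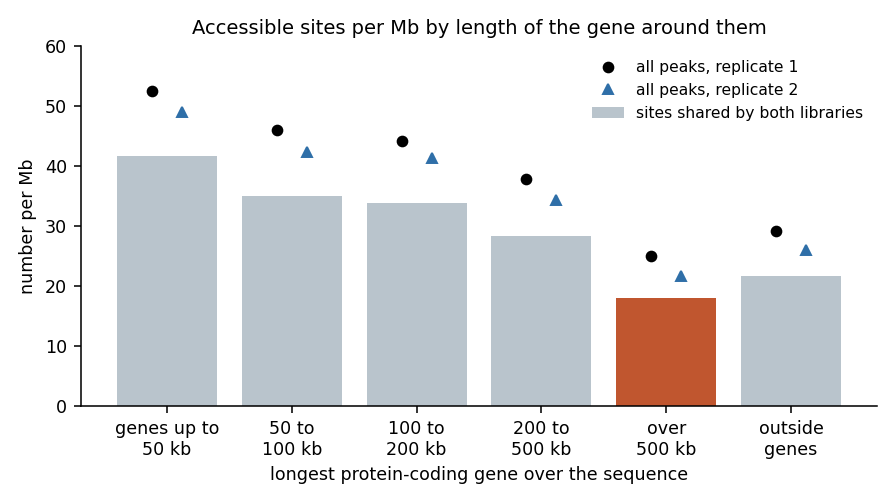
Shared sites per Mb (bars) and all peaks per Mb of each library (points) by the length of the longest protein-coding gene over the sequence, with gene-end windows left out. The bar for genes over 500 kb stands at 17.95 per Mb, below the 28.3 per Mb of genes of 200 to 500 kb, and both libraries show the same step. The classes are not matched for distance from a gene end.

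The ratio to genes of 200 to 500 kb was lower among strong sites, while the difference per Mb was smaller. Sites with at least 20 tags in both libraries occurred at 13.4 per Mb inside the long genes and 22.3 per Mb in genes of 200 to 500 kb, a ratio of 0.603. With at least 80 tags in both the values were 3.10 and 6.47 per Mb, a ratio of 0.479, and with at least 160 tags 1.04 and 2.33, a ratio of 0.449. Outside genes, with the Y chromosome and assembly gaps included, the density was 4.79 per Mb at 80 tags. In all, 584 of the sites inside long genes had at least 80 tags in both libraries.

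The sites themselves were not weak when measured as fold. Their median fold was 10.97 in replicate 1 and 9.92 in replicate 2, against 10.9 and 10.6 for all shared sites, and 1657 of 3385 (49.0%) lay above the median fold of their library in both libraries, beside 51.4% of all shared sites. The top decile of fold in both libraries, which began at 22.9 and 23.5, held 321 of them (9.48%) against 9.52% of all shared sites. In tags they were lower, with a median of 41 and 36 against 52 and 51. All shared sites include the gene-end sites, which the rule leaves out and whose medians were 87 and 97 tags. Against sites in genes of 200 to 500 kb and sites outside genes, both with medians of 46 and 42, the gap was smaller. The local background of the sites inside long genes was low. In 50.1% of them in replicate 1 and 53.1% in replicate 2 it stood at the lowest value of the library, 2.19 and 2.13 tags, where fold follows tags alone. In genes of 200 to 500 kb this held for 39.6% and 42.8%.

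The long genes differed widely among themselves. A gene held a median of 14 sites (quartiles 8 and 21), and its density had a median of 15.8 per Mb (quartiles 9.79 and 26.7). Camta1, which encodes a calmodulin-binding transcription activator, stood first on both scales, with 61 sites and 76.6 per Mb. The 10 genes with most sites held 12.1% of all pairs of gene and site, so the sites were spread over many genes. Across the 223 genes the density of replicate 1 peaks and that of replicate 2 peaks had a Spearman correlation of 0.94, a description over genes in the same 2 libraries.

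After Camta1, the most sites were found in Tenm3 (49), a teneurin adhesion gene, Dlgap1 (44), which encodes a postsynaptic scaffold, and Ctnna3 (40), an alpha-catenin gene. Pde4d (39) encodes a cAMP phosphodiesterase and Kalrn (38) a guanine nucleotide exchange factor. Sox5 (37) encodes a transcription factor. St6galnac3, a sialyltransferase gene, and Dlg2, another postsynaptic scaffold gene, had 35 each. These genes ranged from 526.9 kb for St6galnac3 to 1973.1 kb for Dlg2, so the order by count was not the order by length.

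Per Mb, Camta1 was followed by St6galnac3 (66.7), Kalrn (63.1) and Pard3 (60.3), a cell polarity gene. Dlgap1 had 51.7, Zfhx3, a homeobox transcription factor gene, 50.0, Smyd3, a methyltransferase gene, 49.6 and Nav2 49.3. All 8 were shorter than 900 kb and all were above the 41.6 per Mb of gene bodies up to 50 kb. The libraries ranked them much alike. Camta1 had 68 peaks in replicate 1 and 75 in replicate 2, Kalrn had 45 and 40, and Pard3 had 44 and 35.

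Camta1, at chr4:151059523-151861768, shows what a dense long gene looked like. Its 61 sites ranged from 13 to 295 tags in replicate 1 and from 16 to 350 tags in replicate 2, with medians of 58 and 52. At 20 of them both libraries had at least 80 tags. Its strongest, at 151175575 to 151176039, had folds of 31.6 and 33.0 on 295 and 275 tags and lay 116.3 kb from the nearer gene end. The longest stretch between neighbouring sites was 88.3 kb.

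At the other end, 2 genes had no site at all. Skint5, a gene of the immune Skint family, and Dach2, a transcriptional cofactor gene on the X chromosome, had no peak of either library in their interiors. Dach2 did have a shared gene-end peak with folds of 23.8 and 22.1, while Skint5 had none. A further 21 genes had 1 to 4 sites. Pcdh11x, a protocadherin gene on the X chromosome, had 1 site, at 41 and 44 tags, and the lowest density of the genes with a site, 1.62 per Mb.

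**Figure D2:**
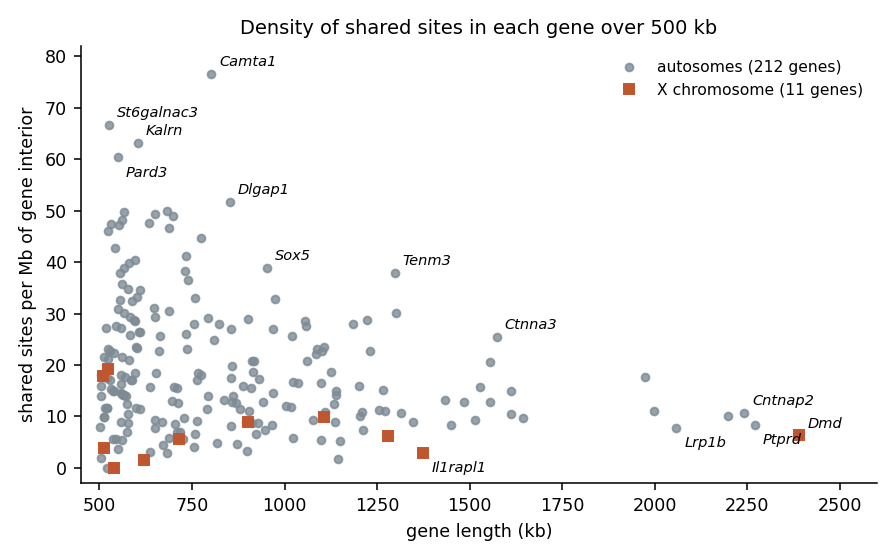
Shared sites per Mb of gene interior against gene length for each of the 223 genes over 500 kb, with squares for the 11 genes on the X chromosome. Camta1 stands highest at 76.6 per Mb, and the longest genes, such as Dmd at 6.31 per Mb, sit low.

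Pooled density was lower in the longer of these genes. Pooled density was 22.1 per Mb in the 74 genes of 500 to 600 kb, 21.6 in the 54 of 600 to 800 kb, 18.2 in the 36 of 800 to 1000 kb, 15.3 in the 44 of 1000 to 1500 kb and 12.3 in the 15 of 1500 to 2500 kb. Across genes the Spearman correlation of length with density was -0.19, and with the number of sites 0.32. These are descriptions over genes that share libraries, and the medians of the first and second length class (17.9 and 18.3 per Mb) did not follow the pooled order.

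The 5 longest genes were all sparse. Dmd, at chrX:82814664-85205050, had 15 sites in 2390.4 kb, with 16 to 109 tags in replicate 1 and 12 to 80 tags in replicate 2, and 1 of them reached 80 tags in both. Ptprd, a receptor tyrosine phosphatase gene, had 19 (8.38 per Mb), Cntnap2 had 24 (10.7 per Mb), Lsamp, a neuronal surface protein gene, had 22 (10.0 per Mb) and Lrp1b, a lipoprotein receptor gene, had 16 (7.78 per Mb). Strong single sites still occurred in them. In Ptprd the strongest, at 76558226 to 76558586 on chromosome 4, had folds of 31.4 and 36.1 on 206 and 259 tags and lay 617.2 kb from the nearer end. In Lsamp the strongest, at 40968062 to 40968457 on chromosome 16, had folds of 31.1 and 30.9 on 194 and 192 tags.

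The X chromosome was sparse in the 3 classes of sequence compared. Its long genes held 72 sites, 6.90 per Mb, against 18.6 on the autosomes. Genes of 200 to 500 kb held 8.94 per Mb on X and 29.2 on the autosomes, and sequence outside genes 7.55 and 24.2. Median tags of the X sites were 33.5 and 28, compared with 41 and 36 for autosomal ones, and median folds were 10.3 and 7.36, compared with 10.98 and 9.92.

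Sites were clustered in some stretches and absent from others. Neighbouring sites of 1 gene lay a median of 24.5 kb apart (quartiles 8.03 and 62.0 kb, 3165 gaps), 17.8% of gaps were under 5 kb, and 453 (14.3%) were over 100 kb. The densest runs within 20 kb held 9 sites in Zfhx3, 8 in Tenm3 and 8 in Ntm, an adhesion gene of the IgLON family. The 9 Zfhx3 sites paired with 8 distinct replicate 2 peaks, so by replicate 2 peaks the runs were equal at 8. In Zfhx3 the run spanned 108695557 to 108715402 on chromosome 8, and its sites had 19 to 92 tags in replicate 1 and 18 to 103 in replicate 2. The run took in the only start window of Zfhx3, at 108714394 to 108714693, touched by a site of 29 and 40 tags. Runs of this kind were made of moderate sites, with folds of 3.38 to 12.5 in replicate 1 for Zfhx3, 5.69 to 15.5 for Tenm3 and 3.97 to 15.9 for Ntm.

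Stretches were measured only between neighbouring shared sites of a gene, not from a site to a gene end. The longest was 803.3 kb in Il1rapl1, a synaptic adhesion gene on the X chromosome, which had 4 sites in 1375.0 kb. The stretch held 2 peaks of replicate 1 and 4 of replicate 2, none above 26 tags, and none shared. In Cntnap2 a stretch of 706.8 kb held 5 and 3 unshared peaks, and in Dmd a stretch of 593.6 kb held 2 and 1. The Dmd stretch ended at the site whose start sequence is printed above. Assembly gaps within these stretches were not examined.

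**Figure D3:**
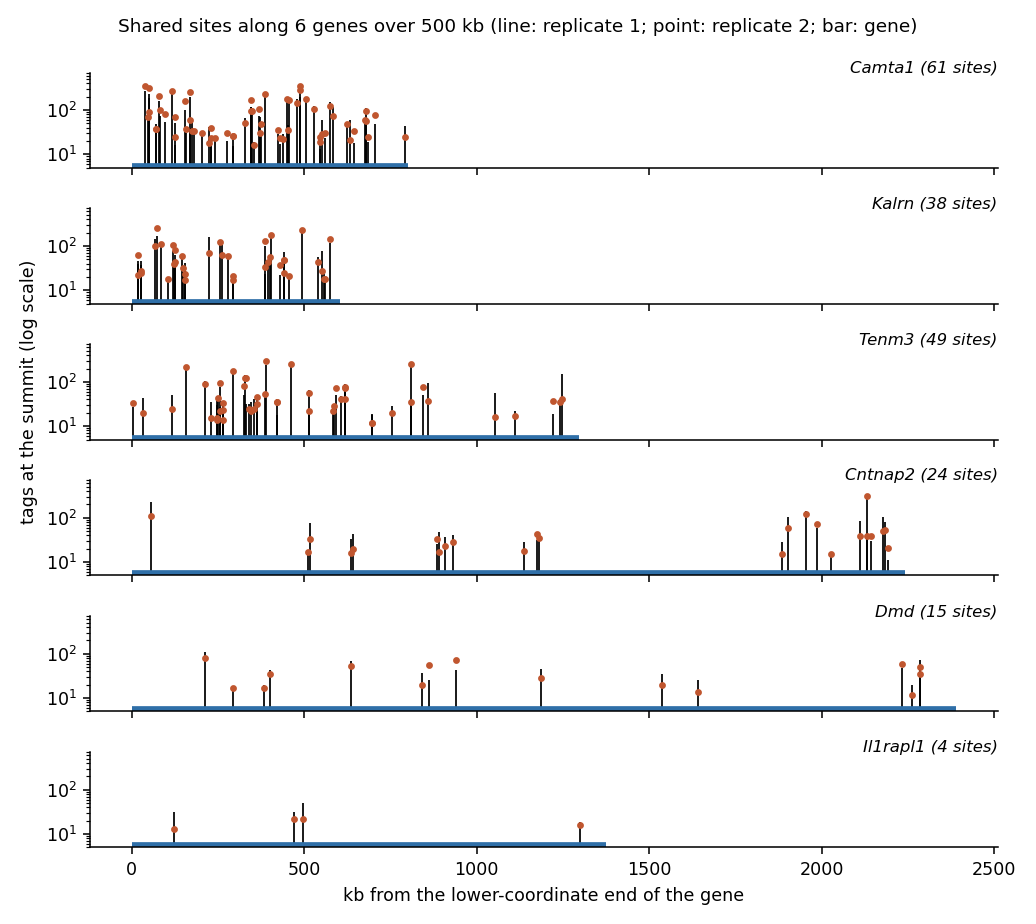
Shared sites along Camta1, Kalrn, Tenm3, Cntnap2, Dmd and Il1rapl1, in kb from the lower-coordinate gene end, with the tags at the summit on a log scale (lines for replicate 1, points for replicate 2). The 61 sites of Camta1 fill its 802.2 kb, while Cntnap2 shows a bare stretch of 706.8 kb and Il1rapl1 has 4 sites in all.

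Within the genes, sites were densest just inside the ends. Density was 80.9 per Mb at 1 to 5 kb from the nearer end, 31.6 at 5 to 10 kb, 21.8 at 10 to 25 kb, 18.1 at 100 to 250 kb and 14.5 beyond 250 kb. The lift came mostly from the 5′ side. In the 179 genes whose strand the start-window table gives, with 2738 sites, density at 1 to 5 kb was 115.4 per Mb from the 5′ end and 43.8 per Mb from the 3′ end. These values include sites at RefSeq starts just past the 1000 bp limit, as in Grik2 at 1.6 kb and Car10 at 1.485 and 2.585 kb. Such sites were not counted apart. From 10 to 100 kb inward the values ran from 19.7 to 23.7 per Mb on either side. With each gene cut into 10 equal parts, density was 24.9 per Mb in the first, 13.1 in the third and 21.6 in the last.

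**Figure D4:**
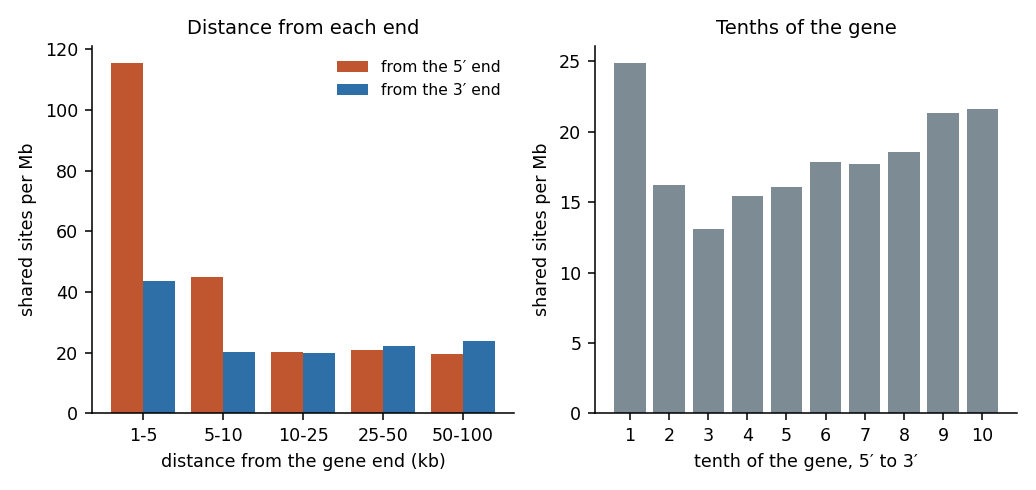
Shared sites per Mb by distance from the 5′ and 3′ ends (left, kb) and by 10 equal parts of the gene (right) in the 179 genes over 500 kb with a known strand. The 5′ bar at 1 to 5 kb reaches 115.4 per Mb against 43.8 on the 3′ side, and the lowest of the 10 parts is the third, at 13.1 per Mb.

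The ends themselves, which the rule leaves out, were read separately. A shared peak lay within 1000 bp of an end in 181 of the 223 long genes (81.2%, 95% Wilson interval 75.5 to 85.8), beside 65.6% of all protein-coding genes. Genes of 200 to 500 kb had one in 83.4%. Genes with and without an end peak had the same median interior density, 15.8 per Mb, with quartiles of 9.31 and 26.5 for the 181 with one and 10.9 and 27.0 for the 42 without. Among the 42 were Dmd, Tenm3, Zfhx3 and Pde4d, which held 15, 49, 34 and 39 interior sites. An end without a peak does not mean that no start was accessible, since RefSeq starts can lie further inside. Shared peaks touched 1 of 1 start windows of Zfhx3 and 1 of 2 of Dmd, all of them inner. In Tenm3 and in Pde4d, 0 of 1 were touched.

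The widest sites mostly lay within a few kb of an end. The widest was in Pard3, 1426 bp in replicate 1 and 1774 bp in replicate 2, and it touched a start window at the near gene end. Its replicate 1 summit lay 1.42 kb from that end. The summits lay 1169 bp apart, so the libraries did not mark the same point. The replicate 2 summit, at 127063627, was within 1000 bp of the gene start at 127063381. Nkain3, a sodium pump interacting protein gene, had a site of 1158 and 1540 bp, 2.37 kb from the end, and Cadps2, a vesicle priming gene, one of 1461 and 1101 bp at 2.05 kb. In Mctp1, a calcium-binding membrane protein gene, a site of 1127 and 1334 bp lay at 1.82 kb. The fifth, of 1476 and 1046 bp, lay 132.2 kb inside Iqschfp and also in Schip1, a pair of overlapping models. In all, 27 sites had 2 or more long host genes and were counted once.

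The strongest sites by rank of fold over both libraries lay in 8 different genes, and this choice required a high fold in both. First was a site in Sorcs1, a sorting receptor gene, at 50671067 to 50671525 on chromosome 19, with folds of 38.3 and 37.1 on 377 and 437 tags. In Csmd1, which encodes a complement-regulating membrane protein, a site 793.8 kb from the nearer end had folds of 37.5 and 37.2 on 368 and 370 tags. In Mgat4c, a glycosyltransferase gene, folds were 37.7 and 36.9 on 287 and 294 tags. None of these 3 touched a start window.

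Ctnnd2, a delta-catenin gene, had folds of 38.3 and 36.5 on 384 and 399 tags at a site that also lay in a noncoding model. Atrnl1, an attractin-like gene, had 36.5 and 36.8 on 268 and 274 tags. Adgrb3, an adhesion G protein-coupled receptor gene, had the highest replicate 1 fold of the whole set, 39.0, with 35.7 in replicate 2, on 319 and 219 tags. Arhgap24, a GTPase activating protein gene, had 35.5 and 36.9 on 243 and 260 tags, and Grid1, a delta-type glutamate receptor gene, had 34.8 and 37.8 on 406 and 375 tags.

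By tags the order was different, since a high local background lowers the fold. Ptprn2, a phosphatase-like gene of secretory granules, had the most, 733 and 643 tags, at 116957562 to 116958168 on chromosome 12, with folds of only 21.7 and 19.5. Rgs6, a regulator of G protein signalling, had 556 and 703 tags and folds of 30.6 and 34.0. Arhgap26 had 495 and 577 tags, Nav2 525 and 527, and Arhgap15 406 and 471. None of these 5 touched a start window.

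Libraries repeated the sites inside long genes about as well as other sites of the same strength. Of the replicate 1 peaks inside long genes, 71.8% (95% Wilson interval 70.5 to 73.1) overlapped a replicate 2 peak, beside 78.0% of all replicate 1 peaks. In the other direction 82.4% did (81.2 to 83.6), beside 84.9%. All peaks include those at gene ends. In genes of 200 to 500 kb the shares were 74.7% and 82.6%, and outside genes 74.4% and 83.3%. Among replicate 1 peaks of 20 to 39 tags the shares were 69.8% inside long genes and 71.7% over all peaks, and among those of 80 or more tags 99.3% and 99.6%. Weak peaks were more common inside long genes, where 26.0% of replicate 1 peaks had under 20 tags, against 19.2% of all.

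Tags were compared where both summits lay within 100 bp, as they did for 3191 of the sites (94.3%). The share was 94.8% in genes of 200 to 500 kb and 94.2% outside genes. Summed over the 3191 sites, replicate 2 held 0.944 times the tags of replicate 1, while over all shared sites the ratio was 1.04. It was 0.985 in genes of 200 to 500 kb, 0.992 outside genes and 1.12 in gene-end windows. Of the 3191 sites, 246 (7.71%) had tags over 2 times higher in replicate 1, beside 4.95% of all such shared sites. In replicate 2 tags were over 2 times higher at 52 (1.63%), beside 2.06%. Ratios per gene were taken over all sites of the gene, whatever the distance between summits. A replicate 2 peak paired with several sites was counted for each. Of 173 genes with at least 8 sites, 120 had a ratio below 1, with a median of 0.94. No such count for shorter genes stands beside it. The lowest were Cdk14, a cyclin-dependent kinase gene, at 0.588 (1040 and 611 tags over 20 sites), and Lrp1b at 0.669. The highest was Pde4b, a cAMP phosphodiesterase gene, at 1.40 (671 and 942 tags over 9 sites). These differences are between libraries of 1 group.

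The sites that differed most were few. A site in Pde4d, at 109827934 to 109828322 on chromosome 13, had 230 tags and a fold of 35.5 in replicate 1 but 17 tags and 5.76 in replicate 2. In Gpc5, a glypican gene, the values were 171 and 23 tags, and in Dab1, an adaptor gene of reelin signalling, 84 and 17. In the other direction, Astn2, an astrotactin gene, had 23 and 124 tags and Nfia, a transcription factor gene, 20 and 102, but their summits lay 331 and 358 bp apart, so the libraries did not mark the same point.

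**Figure D5:**
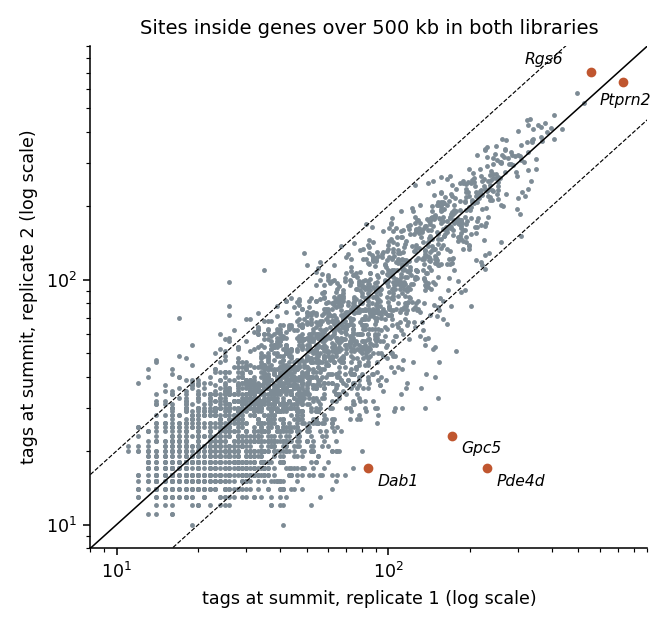
Tags at the summit in replicate 1 and replicate 2 (both log scales) for the 3191 sites inside genes over 500 kb whose summits lay within 100 bp, with the line of equal tags and dashed lines at 2 times more and 2 times fewer. Most points lie between the dashed lines, and Pde4d (230 and 17 tags), Gpc5 and Dab1 stand far below.

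Gene groups differed in how many sites they held per Mb. They also differed in gene length, and pooled density was lower in longer genes, as given above. Interiors spanned 14.2 Mb in 19 transcription and RNA regulator genes, 11.2 Mb in 15 ion channel genes and 36.2 Mb in 27 common fragile site genes. Groups were not compared at equal length, so the 2 were not separated. Over all long genes the pooled density was 18.04 per Mb, with a host counted for each site, and 111 of 223 genes lay above the median gene. Genes of transcription and RNA regulation were the densest group by pooled density, with 371 sites in 19 genes, 26.1 per Mb. Of these, 13 of 19 lay above the median gene. The median density within the group was 23.55 per Mb, close to the 22.97 per Mb of kinases, phosphatases and scaffolds. Camta1, with 61 sites and 76.6 per Mb, raised the pooled value. Camta1, Sox5 and Zfhx3 had the most sites in the group. Zbtb20, a zinc finger repressor gene, with 5 sites (6.63 per Mb), and Zfp804b, with 4 (7.03 per Mb), had the fewest per Mb, so the group was not uniform.

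Kinases, phosphatases and scaffolds came next by pooled density with 609 sites in 32 genes, 22.3 per Mb, and 24 of 32 above the median gene. Dlgap1, Pde4d and Dlg2 had most, and Dgkb, a diacylglycerol kinase gene, with 3 sites, and Plcb1, a phospholipase C gene, with 4, had the fewest per Mb. Axon guidance and neuregulin genes had 190 sites in 12 genes, 17.2 per Mb, with 5 of 12 above the median. In that group Nav2 had 32 sites, Robo1, a Slit receptor gene, 26 and Nrg1, the neuregulin gene, 24, while Dcc, the netrin receptor gene, and Sema6d, a semaphorin gene, had 6 and 5.

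Synaptic adhesion genes, the largest neuronal group, had 535 sites in 30 genes, 16.6 per Mb, with 15 of 30 above the median. Tenm3 (49), Ctnna3 (40) and Sdk1 (32), a sidekick adhesion gene, had most. The list counts Ctnna3, an alpha-catenin gene, in this group, so not every member encodes a synaptic adhesion molecule. Il1rapl1 and Cntn4, a contactin gene, had the fewest per Mb, 2.91 and 5.88. The spread within this group, from 2.91 to 37.8 per Mb, was wider than its distance from the whole.

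Receptor, channel and cadherin genes were sparse. The 6 glutamate receptor genes had 54 sites, 10.3 per Mb, and 1 of 6 lay above the median. Grid1 had 13, Grm8 had 12, and Grm7 and Grm5, metabotropic receptor genes, had 6 and 2. The 15 ion channel genes and partners had 158 sites, 14.1 per Mb, with 5 above the median. Ryr2, the cardiac calcium release channel gene, stood apart with 26 sites and 47.1 per Mb, ahead of Cacna1c, a calcium channel gene, with 16 and Dpp10, a potassium channel partner, with 14. Gabrg3, a GABA receptor gene, had 3 and Cacna2d3 had 4.

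The 6 cadherin genes had 90 sites, 14.3 per Mb, with 2 above the median. Cdh13 held 33 of them, Pcdh15 32 and Pcdh9 10, against 6 in Cdh12 and 1 in Pcdh11x. The 15 genes of matrix, glycans and muscle membrane had 231 sites, 14.4 per Mb, with 5 above the median. St6galnac3 (35), Gpc6 (30), a glypican gene, and Hs6st3 (28), a heparan sulfate sulfotransferase gene, had most, and Sgcz, a sarcoglycan gene, and Galnt13, a glycosyltransferase gene, had 2 each.

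The 27 common fragile site genes, which overlap the other groups, had 486 sites, 13.4 per Mb, with 10 of 27 above the median gene. Ctnna3, Pde4d and Dlg2 had most. Il1rapl1 and Dpyd, the gene of the pyrimidine-degrading dehydrogenase, with 4 sites each, had the fewest per Mb. Dpyd had a strong gene-end peak all the same, with folds of 29.5 and 33.8. The 77 long genes in no group had 19.3 sites per Mb. Median folds differed little between groups, from 9.25 in replicate 1 for glutamate receptor genes to 11.3 for transcription and RNA regulators and for matrix, glycan and muscle membrane genes.

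The values at the limits of the rule are given as a description. The sites nearest to the 1000 bp limit on the inside lay in Smyd3 (1004 bp from a gene end, folds 6.92 and 7.14), Sgcd (1006 bp, 7.55 and 5.83) and Kcnma1 (1009 bp, 5.24 and 3.99). Just outside lay sites in Esrrg (993 bp, 5.00 and 4.59), Cacna2d3 (990 bp, 9.64 and 7.96) and Pard3b (988 bp, 2.93 and 10.7). The genes just above 500 kb were Edil3 with 4 sites, Dock1 with 9 and Samd12 with 7. Those just below, Dnm3, Lrrc7 and Cacna1e, held 16, 9 and 12 sites in their interiors.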

How the data were processed

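ATAC-seq was run on 2 libraries of 1 group, grouped by the labels. Among the tools in the submitters' processing notes are the peak caller MACS2 2.1.1, the aligner Bowtie2 2.3.4.1 and Picard 2.18.23, with the builds mm10 and GRCm38.p3. Settings, including any Tn5 shift or removal of duplicates, are not given in the sources used here, and they bear on summit positions and tags. The deposited lists, called per library, give each peak the authors' fold (a ratio), a −log10 p-value, a −log10 q-value and a score, which was not used.

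Tags were solved from fold and p-value for 100% of peaks (relative tolerance 1e-05 plus 0.0001). Read depth is unknown, so tags set the precision. Wilson intervals cover counting error only. Densities divide by interior length from the first to the last annotated gene or peak on each chromosome, and position densities use a 100 bp grid. Python 3.11.15, numpy 2.4.6, pandas 2.3.3, scipy 1.17.1 and matplotlib 3.10.9 were used, and the scripts were tested on simulated data. Among replicate 1 sites, 99 shared their replicate 2 peak with another, and each was counted.

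The members, gene lists and rules were chosen with earlier results of these data known. Named were the 10 genes with most sites, the 8 densest, genes with none, the 5 longest, the 8 strongest sites, the 5 with most tags, the 5 widest, the 5 that differ most (at least 50 tags in the higher library), per list the 3 genes with most sites and 2 with fewest per Mb, the 3 longest stretches between neighbouring sites, the 3 densest runs and those at the limits. Not every gene named by these rules is reported here. Start sequences were chosen after their values were seen, and those on chromosome 18 were left out. Alternatives covered the q-value, fold, overlap, summit, gene length, end window and each library alone. Sequences are from RefSeq.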

Additional observations from a re-analysis of the deposited data

How the results depend on the processing

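The density ratio of long genes to shorter gene bodies stayed below 1 in all 10 alternatives. Keeping only peaks with a fold above their library's median before pairing gave 1659 sites, 3.85% of the shared sites left, 8.80 per Mb, 3.14% of genes without a site and a median fold of 17.2. Taking genes over 300 kb gave 6707 sites, 8.01% of all shared sites, 21.4 per Mb, a ratio of 0.592 and 0.723% of genes without a site. Taking genes over 1 Mb gave 1126 sites, 1.34%, 14.2 per Mb, a ratio of 0.432 and 0% without. An end window of 500 bp gave a ratio of 0.487 and 0.448% of genes without a site, against 0.897%, and a window of 2500 bp gave a ratio of 0.547. Using 1 library at a time gave 4102 to 4712 sites, 4.14% to 4.39% of its peaks, 21.8 to 25.0 per Mb, ratios of 0.523 to 0.555, 0.897% of genes without a site in both cases and median folds of 8.37 to 8.47, with no requirement of sharing. A stricter q-value, an overlap of 50% of each peak and the replicate 2 summit each moved all 6 values by no more than the spread between libraries, except the count, which was judged by a factor of 1.5. No paired analysis was possible because the series holds 1 group.

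With 2 libraries of 1 group and no reads, sites below the calling threshold could not be told from closed chromatin, and the lowest summits held 9 tags.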

Other observations

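Peaks inside the long genes that only 1 library called were weak. There were 1327 of them in replicate 1, with a median of 18 tags, and 721 in replicate 2, with a median of 17, against medians of 31 and 30 tags over all peaks in these interiors. At 233 of the shared sites inside long genes (6.88%) the summit lay inside a noncoding gene model. A start window of such a model was seldom touched, as given above. The share inside noncoding models was not counted over all shared sites, so 6.88% is not read as particular to long genes.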
